A study of Homo sapiens with 4 samples.

Results

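The BCL2 family of apoptosis regulators was examined through 10 genes, BCL2, BCL2L1, MCL1, BCL2L11, BBC3, PMAIP1, BAX, BAK1, BID and BIK, taken by symbol from lists of N6-methyladenosine (m6A) peaks. In all, 7 of the 10 had a peak, with 15 peaks of the 24626 in the shALKBH5 list and 16 of the 22448 in the shNC list. The cells were RPMI-8226, an established human multiple myeloma line, infected with lentivirus carrying a hairpin that targets ALKBH5 (shALKBH5), the gene of an enzyme that erases m6A from RNA, or the hairpin called shNC. The study sequenced poly(A) RNA enriched with an anti-m6A antibody (IP) beside RNA that was not enriched (input), with 1 library of each kind per condition. There is thus no replicate, and no test between conditions was made. Both conditions share the cell line, the medium and lentiviral infection, and the labels name a single hairpin against ALKBH5.

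Proteins of this family decide whether the outer mitochondrial membrane is opened, the step that releases cytochrome c and starts the caspase cascade. Guardians such as BCL2, Bcl-xL (from BCL2L1) and MCL1 hold the pore-forming effectors BAX and BAK in check, and the BH3-only proteins BIM (BCL2L11), PUMA (BBC3), NOXA (PMAIP1), BID and BIK release that hold. Plasma cells and many myelomas rely on MCL1, whose mRNA and protein are short-lived, and m6A is an mRNA mark known to influence how long a transcript lasts.

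A fold here is the authors' ratio of IP over input within a peak, and log10 p is their peak p-value on a log10 scale, where a more negative number is a stronger peak. Both describe a peak within its own list, and neither holds an RNA level. A peak has a partner when it shares at least 1 base with a peak of the other list. Across the 15 members' peaks with shALKBH5 the median fold was 8.22 and the median log10 p was -89.1, against 6.64 and -15.3 over all peaks of that list. Across the 16 with shNC the medians were 5.51 and -55.4, against 6.54 and -15.8 over all peaks. The members' medians cover different sets of peaks in each list. Among the 13 pairs of members' partners, the fold was higher with shALKBH5 in 6 and with shNC in 7. No such share over all pairs was held, and the scaling of IP to input is not stated. That count therefore shows neither a balance nor a shift between the lists. In the strongest 25% of their list by p stood 8 of the 15 shALKBH5 peaks and 8 of the 16 shNC peaks, and in the highest 25% by fold stood 5 in each list. More of the members' peaks thus stood in the top 25% by p than in the top 25% by fold. Sequencing depth is unknown.

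**Figure D1:**
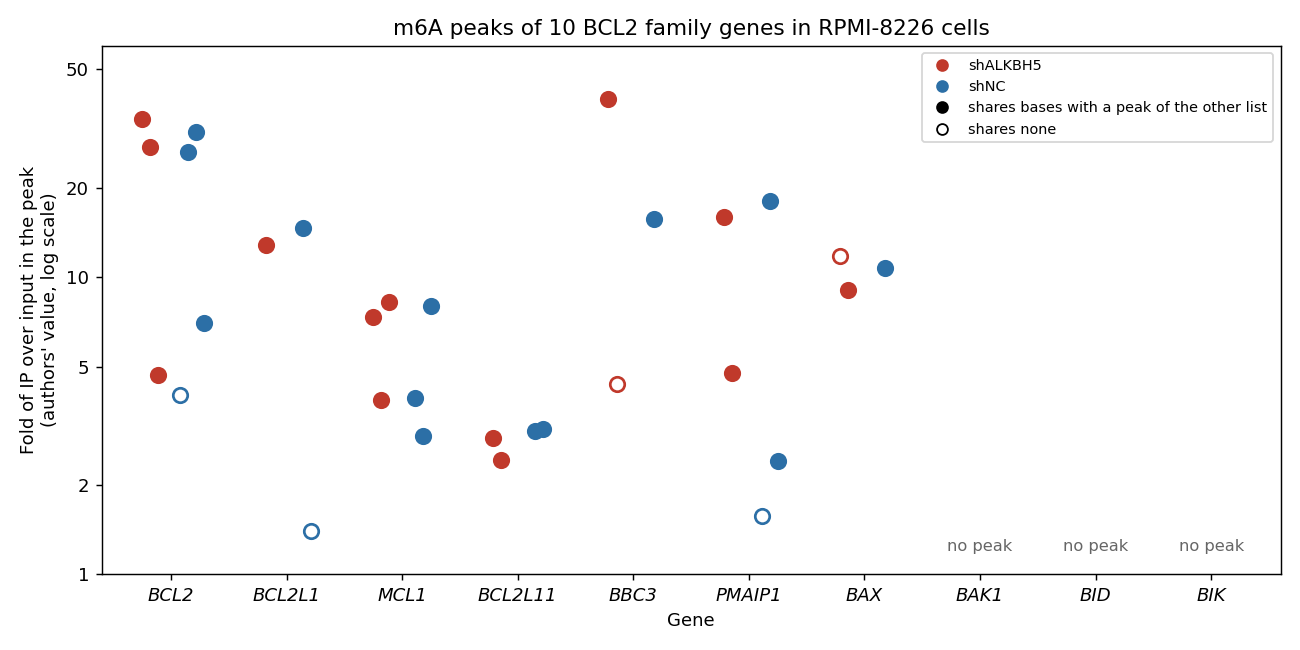
Fold of IP over input (log axis) for every listed peak of the 10 genes, shALKBH5 left of shNC within each gene and peaks of a gene running 5' to 3'. Filled points share bases with a peak of the other list and open points do not. BCL2 and BBC3 hold the highest folds, and the lowest are the open shNC points of BCL2L1 (1.40) and PMAIP1 (1.57).

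Among the guardians, BCL2 (ENSG00000171791, minus strand, RefSeq span chr18:63123346-63320090) carried the widest peaks of the family. A peak 471 bp inside the gene start covered 2156 bases with shALKBH5 (chr18:63317464-63319619), with a fold of 34.1 (log10 p -160). Its shNC partner covered 2186 bases (chr18:63317464-63319649), with a fold of 26.3 (log10 p -124). Only the 5' edge differed, by 30 bases, and 99.9% of peaks in either list covered fewer bases. The next BCL2 peak did not differ in its borders between the lists and was spliced over 3 blocks that together held 1977 bases. Its large block of 1882 bases (chr18:63126878-63128759) was joined to blocks of 24 and 71 bases across gaps of 33086 and 151932 bp. That peak had a fold of 27.4 with shALKBH5 and 30.9 with shNC, and log10 p values of -164 (shALKBH5) and -162 (shNC). A further shared peak of 330 bases lay 419 bp from the gene end with shALKBH5 and 449 bp with shNC, with folds of 4.68 (shALKBH5) and 7.01 (shNC) and log10 p values of -45.9 (shALKBH5) and -43.6 (shNC). In total, BCL2 peaks covered 4463 bases with shALKBH5 and 4673 bases with shNC.

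BCL2L1 (ENSG00000171552, minus strand, RefSeq span chr20:31664452-31723963), which encodes Bcl-xL and by alternative splicing the pro-death Bcl-xS, had a single strong peak in each list. With shALKBH5 it covered 806 bases (chr20:31721662-31722467), with a fold of 12.8 (log10 p -470). With shNC it covered 718 bases (chr20:31721691-31722408), with a fold of 14.6 (log10 p -521). Its 5' edge lay 1496 bp inside the outer edge of the span with shALKBH5 and 1555 bp with shNC. RefSeq also holds a BCL2L1 start at 31722868, which is nearer to these edges. A peak of ABALON, a noncoding gene listed on the opposite strand, shared bases with it in both lists. The ABALON peak had a fold of 12.2 with shALKBH5 and 13.8 with shNC, and log10 p values of -465 (shALKBH5) and -519 (shNC). The sources used here do not state if strand was kept in the libraries, so the signal of the BCL2L1 peak cannot be told apart from that of ABALON.

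MCL1 (ENSG00000143384, minus strand, RefSeq span chr1:150574558-150579610) held the strongest peak of the family by p. That peak, spliced over blocks of 323 and 546 bases (chr1:150576946-150578566), had identical borders with shALKBH5 and shNC. Its log10 p was -987 with shALKBH5 and -1090 with shNC, in each case stronger than 99.3% of the list, with folds of 8.22 (shALKBH5) and 8.02 (shNC). A second MCL1 peak, of 270 bases with the same borders in both lists, held blocks of 267 and 3 bases across a gap of 65 bp. It had folds of 3.87 with shALKBH5 and 2.91 with shNC, and log10 p values of -167 (shALKBH5) and -129 (shNC). At the start of MCL1, a peak that began 38 bp upstream of the RefSeq start covered 270 bases with shALKBH5 and 240 with shNC. This start peak had a fold of 7.35 (log10 p -253) with shALKBH5, against 3.91 and -146 with shNC. All 3 MCL1 peaks had partners, and they left the last 2388 bp of the gene span without a listed peak. With strong p and moderate folds, MCL1 differed from BCL2, whose main peaks ranked high by both.

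**Figure D2:**
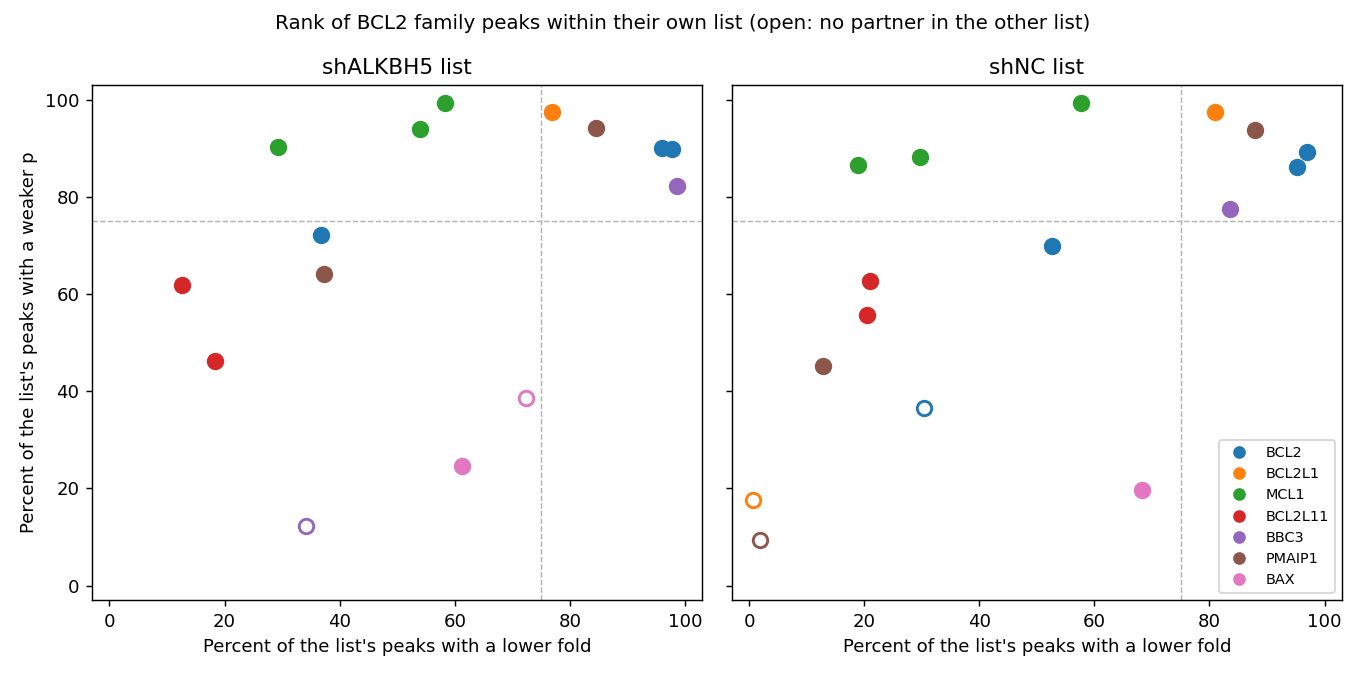
Each member peak placed by the percent of its own list with a lower fold (x axis) and with a weaker p (y axis), shALKBH5 on the left and shNC on the right. Dashed lines mark 75% and open points have no partner. MCL1 points lie left of the vertical line and above the horizontal line, and the highest open point, at BAX, has 38.6% of its list with a weaker p.

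Of the BH3-only genes, BBC3 (ENSG00000105327, minus strand, RefSeq span chr19:47220824-47232860), which encodes the p53 target PUMA, had the highest fold of any member peak. Its main peak lay toward the gene end, covering 541 bases with shALKBH5 (chr19:47221422-47221962) and 451 with shNC (chr19:47221512-47221962). The fold was 39.8 with shALKBH5, above 98.6% of that list, and 15.7 with shNC, above 83.5% of that list. Its log10 p was -89.1 with shALKBH5 and -67.2 with shNC. The 5' edges were the same and the shALKBH5 peak reached 90 bases further toward the gene end. There the shALKBH5 list held another BBC3 peak, 151 bases long (chr19:47221122-47221272), with a fold of 4.37 (log10 p -3.94). It had no partner, and the nearest BBC3 peak of the shNC list was 239 bp away.

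PMAIP1 (ENSG00000141682, plus strand, RefSeq span chr18:59899996-59904305) encodes NOXA, a short BH3-only protein that binds MCL1. Its main peak joined 9 bases to a long block across a gap of 1932 bp. It covered 597 bases with shALKBH5 and 567 with shNC, with folds of 15.9 (shALKBH5) and 18.0 (shNC) and log10 p values of -256 (shALKBH5) and -270 (shNC). A further shared PMAIP1 peak, 744 bp from the gene end, had a fold of 4.75 (log10 p -29.7) with shALKBH5, against 2.41 and -12.8 with shNC. The shNC list also held a weak peak of 120 bases near the start (chr18:59900097-59900216), with a fold of 1.57 (log10 p -3.69), without a partner.

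BCL2L11 (ENSG00000153094, plus strand, RefSeq span chr2:111120914-111168445), the gene of BIM, had 2 modest peaks in each list. The peak at the start was spliced over 3 blocks of 12, 275 and 74 bases with shALKBH5, with a fold of 2.88 (log10 p -12.9). With shNC it was spliced over 2 blocks of 197 and 74 bases, with a fold of 3.04 (log10 p -20.8). Both shared the 3' border, and the 12-base block of the shALKBH5 peak (chr2:111119558-111119569) lay upstream of the RefSeq start. The other BCL2L11 peak, 43245 bp inside the gene, covered 271 bases with shALKBH5 and 301 with shNC, with folds of 2.43 (shALKBH5) and 3.08 (shNC) and log10 p values of -26.5 (shALKBH5) and -29.3 (shNC). No BCL2L11 peak had a fold above 3.08 in either list. BID, which links death receptors to mitochondria after caspase cleavage, and BIK, a BH3-only protein of the endoplasmic reticulum, had no listed peak.

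Among the effectors, BAX (ENSG00000087088, plus strand, RefSeq span chr19:48954875-48961798) had its shared peak at the very end of the gene. It covered 179 bases with shALKBH5 (chr19:48961590-48961768) and 209 with shNC (chr19:48961590-48961798), where it ended on the last base of the span. The folds were 9.05 with shALKBH5 and 10.7 with shNC, with weak log10 p values of -5.62 (shALKBH5) and -5.01 (shNC). A BAX peak at the gene start stood in the shALKBH5 list alone (chr19:48954815-48955053), with a fold of 11.8 (log10 p -9.21). The folds of the BAX peaks stood above 72.4% and 61.2% of the shALKBH5 list and above 68.3% of the shNC list, while their p values were stronger than 38.6% and 24.6% of the shALKBH5 list and 19.7% of the shNC list. BAK1, the gene of the other effector, had no listed peak.

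For BAK1, BID and BIK, no peak of any gene lay on the RefSeq span or within 500 bp of it in either list. Of 20056 RefSeq protein-coding symbols, 47.7% had a peak in either list, so 7 of 10 members compares with that share. The tables do not say whether such a gene lacked RNA or lacked m6A, and these cannot be told apart here. Each of those 7 members stood in both lists, as did 83.0% of the 12779 gene symbols with any peak. The protein domains named in the authors' description column did not separate guardians from effectors. BH1 to BH3 were named for BCL2, BCL2L1, MCL1 and BAX, BH4 for BCL2 and BCL2L1, and BH3 alone for BCL2L11. No BH domain was named for BBC3 or PMAIP1, both BH3-only genes, so that column is no full account of domains.

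**Figure D3:**
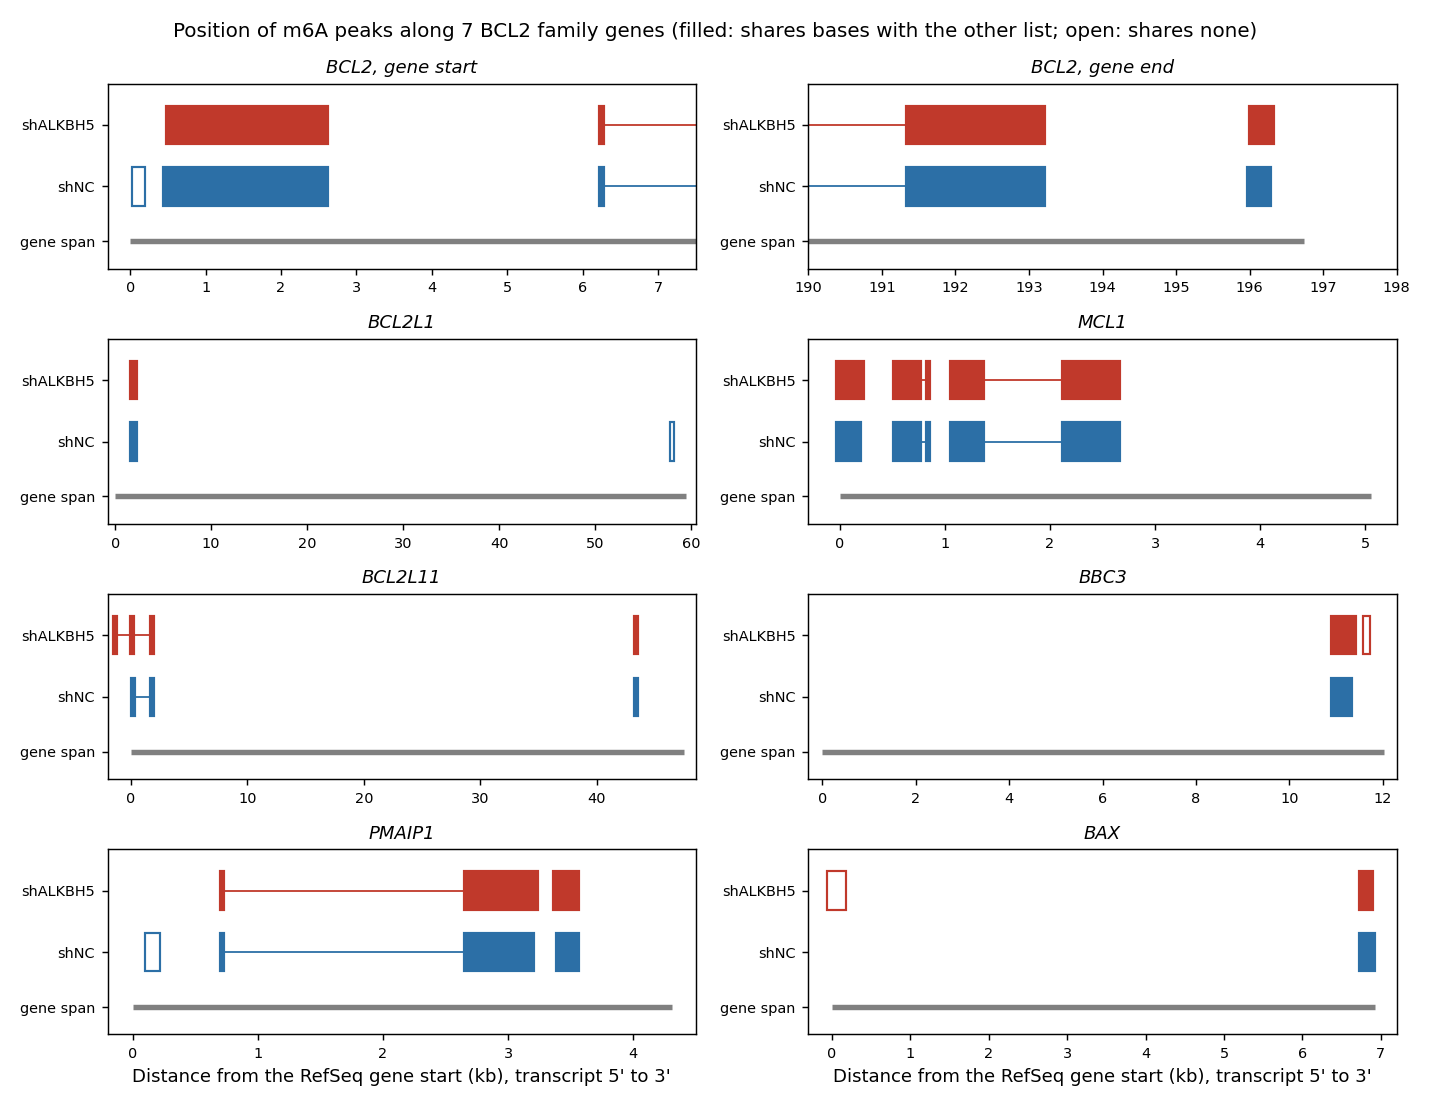
Peaks along 7 member genes by distance from the RefSeq gene start in kb, shALKBH5 above shNC, with the gene span in grey. BCL2 is drawn at its start and its end only, which leaves out the shortest block of its spliced peak. Boxes are blocks of a peak (the shortest are widened to stay visible), lines join blocks across gaps, and open boxes have no partner. Most boxes of the 2 lists line up, and the 5 open boxes lie at BCL2, BCL2L1, BBC3, PMAIP1 and BAX.

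The comparison of the lists left 5 of the members' peaks without a partner. In the shALKBH5 list these were 2 of 15 (13.3%, exact 95% binomial interval 1.66 to 40.5%, counting error only), at BBC3 and BAX, against 19.8% of all peaks. In the shNC list they were 3 of 16 (18.8%, 4.05 to 45.6%), at BCL2, BCL2L1 and PMAIP1, against 12.6% of all peaks. Both backgrounds lie inside the members' intervals. These are wide and treat peaks as independent, though several came from the same gene, so little can be read from that. The BCL2L1 peak of the shNC list (chr20:31665885-31665974) was 90 bases long, with a fold of 1.40 (log10 p -4.73), and lay 55687 bp from the nearest BCL2L1 peak with shALKBH5. All 5 had a log10 p weaker than -10. Among peaks that weak, 2 of 3 members' peaks in the shALKBH5 list lacked a partner, against 44.1% of all such peaks, and 3 of 4 in the shNC list, against 29.8%. Among stronger peaks, 0 of 12 in the shALKBH5 list lacked a partner, against 3.26% of all such peaks, and 0 of 12 in the shNC list, against 1.26%. Few peaks of that strength lacked a partner anywhere in the lists, so 0 of 12 is near the background.

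Peaks at gene starts, defined as beginning upstream of the start or less than 500 bp inside it, numbered 4 of 15 with shALKBH5 and 5 of 16 with shNC. The start was taken as the outer edge of the RefSeq span. The strong BCL2L1 peak, less than 500 bp inside an inner RefSeq start in both lists, was therefore not counted. The shares over all placed peaks were 14.5% (shALKBH5) and 11.4% (shNC). BCL2, MCL1 and BCL2L11 had a start peak in both lists. Of the peaks without a partner, 1 of 2 with shALKBH5 (BAX) and 2 of 3 with shNC (BCL2 and PMAIP1) lay at a start, against 27.1% (shALKBH5) and 12.7% (shNC) of all placed peaks without a partner. Peaks within 1000 bp of the gene end numbered 5 of 15 with shALKBH5 and 4 of 16 with shNC, against 22.0% (shALKBH5) and 23.0% (shNC) of all placed peaks.

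RefSeq start windows, 250 bases before to 50 after a start, were held for 8 of the 10 members, and MCL1 and BIK had none. The windows of BAX, BCL2 and BCL2L11 are shown because they reached into a member's peak. At each of these the lists differed at the 5' end of the gene. PMAIP1 also had a start peak in the shNC list alone, but its window ended upstream of that peak. Capitals mark bases inside the peak, 5' to 3' on the strand of the gene (GRCh38.p14).
BAX, chr19:48954625-48954924, plus strand, peak of the shALKBH5 list alone: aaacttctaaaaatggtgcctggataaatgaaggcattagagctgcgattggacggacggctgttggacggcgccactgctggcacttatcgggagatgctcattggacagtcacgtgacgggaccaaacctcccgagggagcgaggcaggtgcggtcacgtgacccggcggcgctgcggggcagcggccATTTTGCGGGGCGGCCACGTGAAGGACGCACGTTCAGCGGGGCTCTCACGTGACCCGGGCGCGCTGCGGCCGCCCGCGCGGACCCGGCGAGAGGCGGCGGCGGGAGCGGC
BCL2, chr18:63319720-63320019, minus strand, peak of the shNC list alone: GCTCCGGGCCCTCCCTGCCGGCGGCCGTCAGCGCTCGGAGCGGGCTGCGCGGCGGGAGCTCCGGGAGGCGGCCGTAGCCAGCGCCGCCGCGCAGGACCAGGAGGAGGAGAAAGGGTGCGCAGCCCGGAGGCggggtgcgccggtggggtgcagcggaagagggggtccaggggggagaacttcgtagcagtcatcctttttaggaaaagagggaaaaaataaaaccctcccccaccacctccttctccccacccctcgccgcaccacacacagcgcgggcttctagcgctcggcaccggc
BCL2L11, chr2:111120664-111120963, plus strand, peak of the shALKBH5 list that has a partner: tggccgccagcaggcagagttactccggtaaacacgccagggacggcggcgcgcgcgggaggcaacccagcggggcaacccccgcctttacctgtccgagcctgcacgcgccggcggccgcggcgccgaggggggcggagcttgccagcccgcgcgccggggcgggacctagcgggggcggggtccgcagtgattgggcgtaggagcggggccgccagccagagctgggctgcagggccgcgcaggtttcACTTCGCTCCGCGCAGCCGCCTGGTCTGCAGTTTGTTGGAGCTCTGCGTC

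In the BAX window, 110 bases lay inside the shALKBH5-only peak, which began 60 bp upstream of the RefSeq start and ran through it. In the BCL2 window, 131 bases lay inside the shNC-only peak. Those bases were upstream of the start site used for the window (63319769) but inside the RefSeq span of BCL2, whose outer edge was 22 bp from the 5' edge of the peak. That peak (chr18:63319889-63320068) had a fold of 4.01 (log10 p -8.78), and 269 bp separated it from the nearest BCL2 peak with shALKBH5. In the BCL2L11 window, 50 bases lay inside the peak, whose middle block began exactly at the RefSeq start with shALKBH5. The shNC peak began 78 bp downstream of that start.

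GGAC, the core of the m6A consensus, was searched in these windows on both strands. On the sense strand it stood 2 times inside the BAX peak, 1 time inside the BCL2 peak and 0 times inside the BCL2L11 peak. The whole windows held 7 (BAX), 1 (BCL2) and 2 (BCL2L11) matches on the sense strand and 0 (BAX), 1 (BCL2) and 2 (BCL2L11) on the other strand. GGACT, a longer form that contains GGAC, had 0 matches in the 3 windows on either strand. Over all 35116 RefSeq start windows, 66.3% held GGAC and 25.3% held GGACT on the sense strand. These shares are for whole windows, not for the parts inside peaks. In the 50 bases after the start, the part inside the BCL2L11 peak, 18.9% of all windows held GGAC on the sense strand. No such share was held for the BAX and BCL2 parts. The GC content inside the peaks was 78.2% for BAX, 80.2% for BCL2 and 64.0% for BCL2L11. A match describes the letters only, and the peaks cover more bases than a start window holds.

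Peaks listed in more than 1 block, called spliced here, and peak borders were also counted. The gaps between blocks were not checked against exons. Peaks spliced over 2 or more blocks numbered 5 of 15 with shALKBH5 and 5 of 16 with shNC, against 17.9% (shALKBH5) and 17.4% (shNC) of all peaks, and came from BCL2, MCL1, BCL2L11 and PMAIP1 in both lists. Of the 13 peaks with a partner, 3 had identical borders (1 at BCL2 and 2 at MCL1), against 14.3% of shALKBH5 and 14.4% of shNC peaks with a partner. The shALKBH5 peak covered more bases in 6 of the 13 pairs, the shNC peak in 3, and 4 were equal. Over the 14577 pairs of single partners in the whole lists, the shALKBH5 peak covered more bases in 40.1% and the shNC peak in 37.9%. The BCL2L1 pair, longer with shALKBH5, is outside that background, since its peaks also share bases with ABALON peaks. The differences among members ran from 90 bases longer with shALKBH5, at BBC3 and BCL2L11, to 30 bases shorter, at BCL2, BCL2L11 and BAX.

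Other genes of the pathway were counted in 3 lists, to be read against the 47.7% of protein-coding symbols with a peak and the 83.0% of genes with a peak that stood in both lists. Of 13 other BCL2 family genes, 8 had a peak, and 5 of these stood in both lists. BCL2A1, a guardian induced by NF-κB, and BCL2L10 had peaks in the shALKBH5 list alone, and BNIP3, a mitophagy receptor, in the shNC list alone. The BCL2A1 peaks, both near the gene start, had folds of 14.5 (log10 p -3.54) and 10.9 (log10 p -2.65). The BCL2L10 peak had a fold of 19.0 (log10 p -9.40), and the BNIP3 peak had a fold of 12.5 (log10 p -4.02). BMF, a BH3-only gene, had the highest fold of this list, in a peak of 660 bases with identical borders with shALKBH5 and shNC (chr15:40089356-40090015). That BMF peak had a fold of 59.9 (log10 p -72.5) with shALKBH5, against 22.2 and -49.3 with shNC. BMF had 3 peaks with shALKBH5 and 6 with shNC, of which 2, both near the gene end, had no partner. The highest folds of HRK, a BH3-only gene, were 17.6 with shALKBH5 and 29.4 with shNC, those of BCL2L13 were 19.9 (shALKBH5) and 29.4 (shNC), and those of BCL2L2, which encodes the guardian Bcl-w, were 25.3 (shALKBH5) and 23.2 (shNC). At these folds log10 p ran from -5.10 (BCL2L13) to -8.62 (HRK) in the shALKBH5 list, and from -7.92 (BCL2L13) to -15.6 (HRK) in the shNC list. BOK, BAD, BCL2L14, BCL2L15 and BNIP3L had no peak.

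In the list of mitochondrial apoptosis partners, 11 of 14 genes had a peak (47.7% over all protein-coding symbols), and 9 of the 11 stood in both lists (83.0% over all genes with a peak). VDAC2, an outer membrane channel that BAK binds, and VDAC3 had a peak in the shALKBH5 list alone, with folds of 14.5 (log10 p -3.54) for VDAC2 and 1.29 (log10 p -6.72) for VDAC3. XIAP, a caspase inhibitor, had folds of 13.6 with shALKBH5 and 13.9 with shNC, and log10 p values of -122 (shALKBH5) and -113 (shNC). The initiator caspase gene CASP9 had a single peak of identical borders in both lists, at a fold of 7.46 (log10 p -233) with shALKBH5, against 6.66 and -170 with shNC. The highest folds of BIRC5, which encodes survivin, were 3.05 with shALKBH5 and 5.55 with shNC, in different peaks. APAF1, VDAC1 and MTCH2 had none. Of 14 genes that control the turnover or transcription of family members, 11 had a peak, and each of the 11 stood in both lists, beside the same shares of 47.7% and 83.0%. FBXW7, a ubiquitin ligase subunit that marks MCL1 for degradation, had its highest fold at 22.2 with shALKBH5 and 85.3 with shNC, in different peaks. At MDM2, the ligase of p53, the highest folds were 26.8 with shALKBH5 and 28.9 with shNC. That MDM2 peak shares bases with listed peaks of AC025423.2 and CPM, and its signal cannot be told apart from theirs. The highest folds were, at FOXO3, a transcription factor that induces BIM, 25 (shALKBH5) and 21.4 (shNC), and at the ligase subunit gene BTRC 19.3 (shALKBH5) and 14.6 (shNC). TP73, BAG6 and STAT3 had none.

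**Figure D4:**
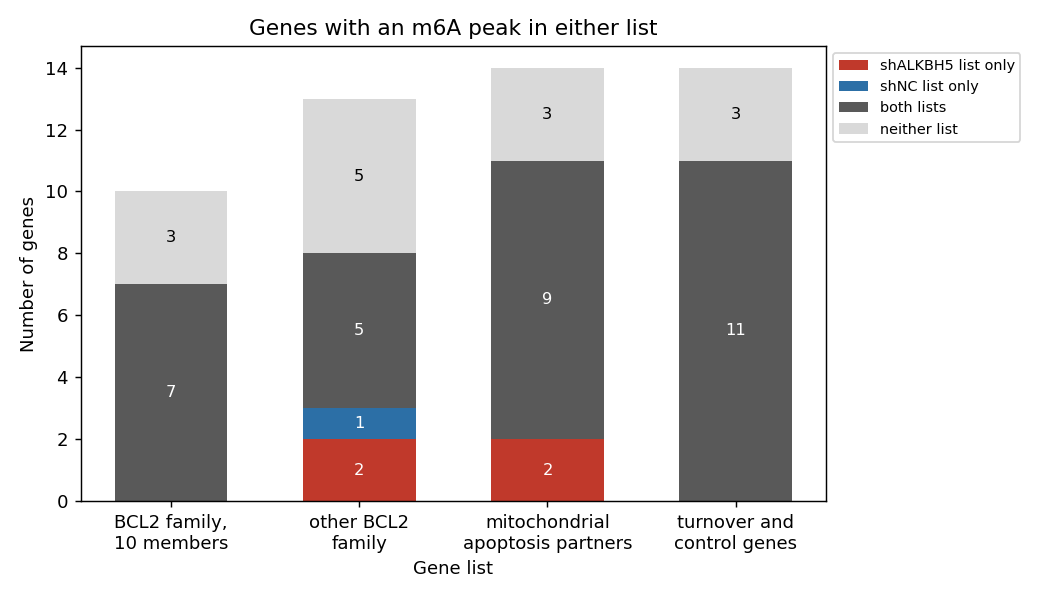
Number of genes with a peak in the shALKBH5 list only, the shNC list only, both lists or neither list, for the 10 members and the 3 pathway lists. The 7 members with a peak stand in both lists, and genes of 1 list alone number 3 among the other BCL2 family and 2 among the mitochondrial partners.

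Of 10 plasma cell genes, 8 had peaks in both lists, and TNFRSF17 and SLAMF7 had none. The marker counts stand beside 47.7% of protein-coding symbols with a peak and 83.0% of genes with a peak that stood in both lists. Ranked by the highest fold in either list, the first 4 were TNFRSF13B, with 18.1 (shALKBH5) and 30.7 (shNC), PRDM1, with 14.6 (shALKBH5) and 15.7 (shNC), POU2AF1, with 7.79 (shALKBH5) and 15.6 (shNC), and SDC1, with 14.7 (shALKBH5) and 10.1 (shNC). Peaks were found for 1 of 8 T and NK cell genes, CD8A, with shALKBH5 alone (fold 7.69, log10 p -3.12). Of 7 myeloid genes, 2 had peaks, ITGAM and CD68, in both lists. Of 6 stromal genes, 2 had peaks, CXCL12 in both lists and PDGFRB with shNC alone (fold 14.3, log10 p -3.5). The strongest log10 p was -57.7 at ITGAM (shALKBH5), -20.2 at CD68 (shNC) and -16.5 at CXCL12 (shALKBH5). A listed peak depends on both RNA and enrichment by the antibody, so these counts are no expression levels. The level of ALKBH5 cannot be read from them either.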

How the data were processed

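RPMI-8226 poly(A) RNA gave 4 libraries, and the authors deposited 1 peak list per condition. The tools named are fastp 0.19.11, BWA 0.7.12 and HOMER 4.9.1 on hg38, per the submitters' processing notes, which give no order. The sources used here do not name the peak caller, its settings or its scaling of IP to input. Per the file headers, each peak carries a fold (ratio of IP over input), a p-value, and log10 p and log10 FDR, which were read as a score because they go beyond the range set for log values. Error cells, 1 (shALKBH5) and 2 (shNC) in log10 p, were ranked strongest. The deposited starts count from 0 and were raised by 1.

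Members were matched by symbol. Partners shared at least 1 base of their blocks, strand ignored. Gene spans and start windows came from RefSeq GRCh38.p14, which placed 88.2% of shALKBH5 and 88.4% of shNC peaks. Python 3.11.15, pandas 2.3.3, numpy 2.4.6, SciPy 1.17.1 and matplotlib 3.10.9 were used. Partner calls and distances from the gene start were checked on simulated peaks, and the start and end classes were not. Alternatives were reciprocal overlap, a window, strand, stricter fold or p, merging, equal list length, other start windows, ranking by fold and GGACT. Besides the members, genes named are those of 1 list alone, the 4 of highest fold per pathway list, and genes sharing bases with a member's peak, while genes without a peak were added. Some genes of the mitochondrial list are not reported here. Members and lists were chosen with earlier results of these data known. With no genome sequence used here, motifs were searched in start windows alone.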

Additional observations from a re-analysis of the deposited data

How the results depend on the processing

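With 1 list per condition no replicate could be left out. No paired analysis was possible because each condition has 1 IP and 1 input library. Of 41 alternative values for 9 counts, 32 lay within 1.5 times the reported count. With peaks limited to a log10 p of -10 or stronger, peaks without a partner came to 0 in both lists, as did start peaks without a partner, since the limit removes all 5 such peaks. When folds had to reach 2 times the minimum of their list, the shNC list kept 1 peak without a partner, at BCL2, which is also its 1 start peak without a partner. Ranked by fold in place of p, 5 shALKBH5 and 5 shNC peaks stood in the highest 25%. GGACT in place of GGAC gave 0 matches inside the peaks. Depth, and with it the power to list a weak peak, is unknown.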
